A study of Mus musculus with 2 samples.

Results

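Secreted inhibitors of blood vessel growth were followed here through 7 genes: Serpinf1, which encodes pigment epithelium-derived factor (PEDF), the thrombospondin genes Thbs1, Thbs2, Thbs3 and Thbs4, and the vasohibin genes Vash1 and Vash2. They were chosen by name. All 7 are among the 23420 gene rows of the count table, and all 7 are among the 15796 genes that passed the filter on low counts. RNA came from untreated mice 11 to 13 months old, from pooled pigment epithelium (RPE) and choroid, that is, the pigmented layer under the retina together with its vascular coat. One group of 3 animals is labelled AhR -/- (strain B6.129-AhRtm1Bra/J, a targeted Ahr allele carried in the germline) and the other group of 3 is labelled AhR +/+ (C57BL6/J). RNA of 2 eyes was pooled for each library, and values by library are always given in the order of animals 1, 2 and 3. The labels do not say that the groups were littermates, so strain background and genotype cannot be told apart. Ahr encodes the aryl hydrocarbon receptor, and the series asks which transcripts differ with its loss in a tissue where new vessels cause disease.

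PEDF is a secreted, non-inhibitory serpin that the pigment epithelium makes in large amounts, and it is the classic counterpart of the vessel growth factor VEGF-A in the outer retina. Thrombospondins are large secreted glycoproteins of the matrix. Thrombospondins 1 and 2 form trimers and carry the type 1 repeats that bind the receptor CD36 on endothelial cells. Thrombospondins 3 and 4 form pentamers and lack those repeats, and thrombospondin 4 is best known from tendon, muscle and heart. Vasohibin 1 is induced in endothelial cells by angiogenic stimuli and damps vessel growth, while vasohibin 2 has been described as promoting it. Both vasohibins, held by a small chaperone, also remove the last tyrosine from alpha-tubulin.

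The genes lie on 7 different chromosomes of GRCm38 (GENCODE M21). Serpinf1 spans 75409769 to 75422701 of chromosome 11 (minus strand) and Thbs1 spans 118111876 to 118127133 of chromosome 2 (plus strand). Thbs2 lies at 14665500 to 14694235 of chromosome 17 (minus strand), Thbs3 at 89215180 to 89226837 of chromosome 3 (plus strand) and Thbs4 at 92751590 to 92794818 of chromosome 13 (minus strand). Vash1, at 86678700 to 86692091 of chromosome 12 (plus strand), is 51.1 Mb from Ahr on the same chromosome. Vash2 lies at 190947646 to 190979296 of chromosome 1 (minus strand). Exons of Thbs3 share 318 bases (6.59% of its exon length) with Mtx1 on the opposite strand, and those of Thbs1 share 208 bases (3.42%) with the non-coding gene Gm29233. The counting strand is not given in the sources used here, so reads in those overlaps cannot be told apart.

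The receptor and its partner ARNT bind a core of 5 letters, GCGTG. Promoter windows of RefSeq (GRCm38.p6, 250 bases before to 50 after a start site) were found for 6 of the 7 genes, 7 windows in all, with none used for Thbs1. The core, searched on both strands, was in 2 of those 7 windows, against 32.4% of the 32851 windows in the table. Serpinf1 is shown as the best-known gene of the group, and Thbs4 and Vash2 because a window of each holds the core, which is in capitals. The Serpinf1 window (chr11:75422574-75422873, minus strand) holds 0 copies. The Thbs4 window (chr13:92794769-92795068, minus strand) holds 1 copy on the other strand, read as CACGC, whose first base is at -151 from the start. The Vash2 window shown (chr1:190979247-190979546, minus strand) holds 1 copy on the strand printed, first base at -109. Another Vash2 window (chr1:190978949-190979248, minus strand) holds 0 copies and is not printed.
Serpinf1: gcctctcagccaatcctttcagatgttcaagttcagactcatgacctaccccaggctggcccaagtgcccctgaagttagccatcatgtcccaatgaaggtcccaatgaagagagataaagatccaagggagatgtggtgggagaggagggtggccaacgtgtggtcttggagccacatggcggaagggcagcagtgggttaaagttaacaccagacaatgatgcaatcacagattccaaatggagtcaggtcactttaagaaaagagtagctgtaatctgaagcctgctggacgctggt
Thbs4: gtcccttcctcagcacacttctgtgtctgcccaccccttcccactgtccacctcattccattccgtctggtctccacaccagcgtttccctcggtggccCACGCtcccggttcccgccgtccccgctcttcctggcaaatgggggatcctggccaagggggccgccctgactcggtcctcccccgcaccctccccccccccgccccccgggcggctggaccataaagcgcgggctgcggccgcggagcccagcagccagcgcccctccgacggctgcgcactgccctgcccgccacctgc
Vash2: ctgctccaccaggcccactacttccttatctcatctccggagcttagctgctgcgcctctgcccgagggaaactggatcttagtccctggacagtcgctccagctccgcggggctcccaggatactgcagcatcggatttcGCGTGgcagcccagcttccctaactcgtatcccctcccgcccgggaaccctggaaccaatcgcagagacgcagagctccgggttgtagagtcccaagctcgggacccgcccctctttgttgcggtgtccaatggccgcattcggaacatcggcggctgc
A match describes letters only and was not tied to any binding measurement.

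The libraries held 18058725 to 28692624 gene counts. Levels are given as CPM, a count scaled to a common library total after TMM adjustment of the library sizes. Ahr itself stood at 40.6 to 45.4 CPM in the knockout-labelled group and 19.7 to 26.0 CPM in the wild type, so a whole-gene count did not check the labels, and every direction here rests on them. Animal 1 of each group was female (Xist 821 and 844 CPM) and the others male. The pigment epithelium marker Rpe65 was at 1326 to 2987 CPM, but Best1 was at only 1.72 to 3.55 CPM. Summed CPM of 6 photoreceptor markers was 7716 to 16728, although the retina had been removed. Red cell markers summed to 1116 CPM in knockout-labelled animal 1 and to 4.32 to 78.4 CPM elsewhere, and that library stood apart in them. Corneal and conjunctival markers summed to 3528, 15060.3 and 11676 CPM in the knockout-labelled group and to 6080.5, 2519 and 2915 CPM in the wild type.

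Per exon length, Serpinf1 and Thbs1 were among the most abundant transcripts of the tissue. Mean Serpinf1 over the 6 libraries was 325 CPM per kilobase of exon (range 254 to 428), above 99.5% of the 15616 tested genes with a length. Thbs1 followed at 204 (153 to 255), above 99.1% of genes, and then Thbs4 at 94.9 (61.3 to 122). In each of the 6 libraries Serpinf1 was above Thbs1, although across libraries the lowest Serpinf1 value, 254, lay just under the highest Thbs1 value, 255. Thbs2 came next at 20.9 CPM per kilobase (17.7 to 25.4). Vash1 at 6.59 (5.10 to 9.52) and Thbs3 at 5.28 (4.42 to 7.04) overlapped and did not differ beyond their spread. Vash2 was lowest at 0.589 CPM per kilobase (0.466 to 0.865), above 11.9% of genes. The other neighbours in this order did not overlap.

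**Figure D1:**
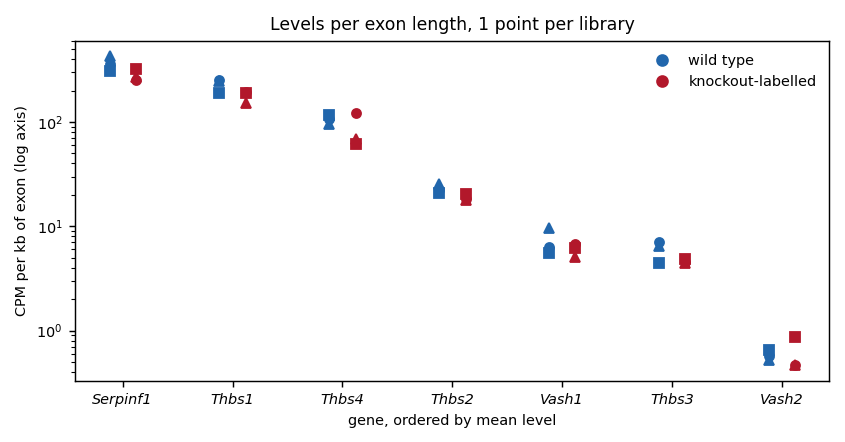
Level of each gene in CPM per kilobase of exon, on a log axis, with 1 point per library (blue, wild type; red, knockout-labelled; circle, square and triangle are animals 1, 2 and 3). Serpinf1, Thbs1 and Thbs4 lie above 60 in every library, Thbs2 near 20, Vash1 and Thbs3 between 4.42 and 9.52, and Vash2 below 1.

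None of the 7 genes passed the test between genotypes. In edgeR's quasi-likelihood fit over all genes 0 of 7 were called at a Benjamini-Hochberg adjusted p under 0.05, where 0.0506% of all genes tested were called. None of the 7 had an unadjusted p under 0.05, against 14.2% of all genes. DESeq2 and the edgeR exact test also called 0 of the 7, where they called 3.12% and 2.26% of all genes. At an unadjusted p under 0.05 DESeq2 held 3 of the 7 (Serpinf1, Thbs1 and Thbs2), against 14.9% of all genes. Of the 7 log2 fold changes, taken as knockout-labelled over wild type, 6 lay below 0 and 1 above, where 48.8% of all genes lay below 0. Their median was -0.33, beside 0.01 over all genes tested. The 7 genes are not separate observations, because some moved together over the same 6 libraries. Pearson's r of log2 CPM was 0.97 for Serpinf1 with Thbs2 and 0.91 for Thbs1 with Thbs3, but -0.02 for Serpinf1 with Thbs4. For 1 of the 7, Thbs2, all knockout-labelled libraries were below all wild-type libraries, a pattern that 9.96% of all genes showed. Without knockout-labelled animal 1 the count below 0 was again 6 of 7, with Serpinf1 at -0.30, Thbs1 at -0.42, Thbs2 at -0.26, Thbs3 at -0.37 and Vash1 at -0.33.

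**Figure D2:**
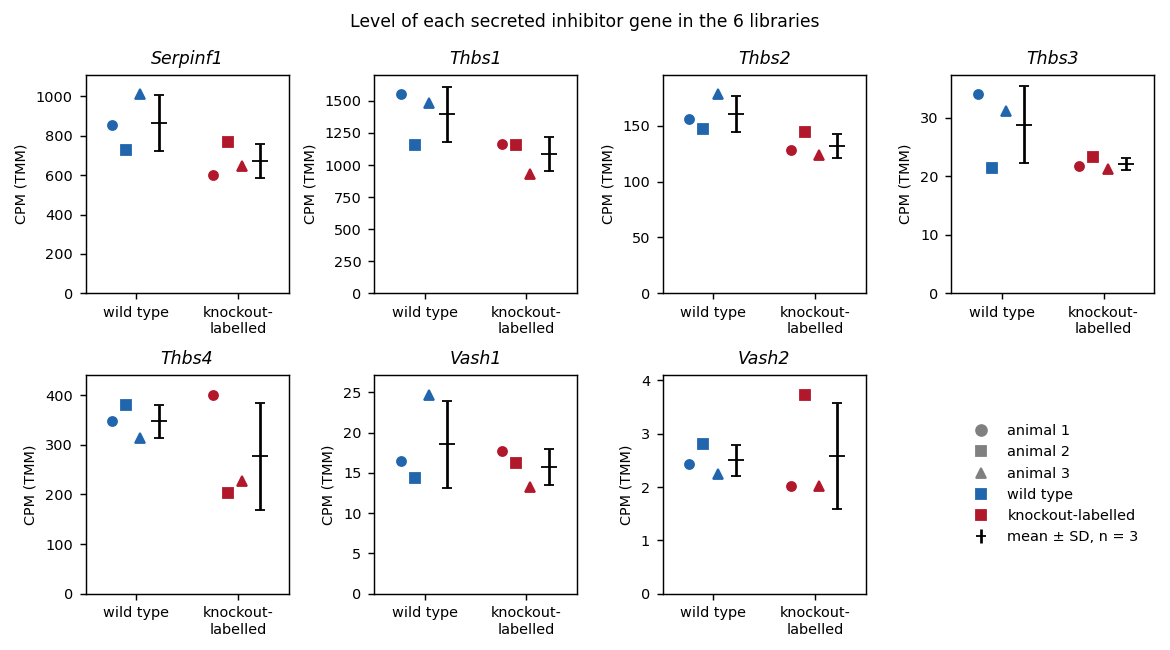
CPM of each gene in every library, each panel on its own axis from 0, with the mean ± SD of 3 libraries beside the points (blue, wild type; red, knockout-labelled; circle, square and triangle are animals 1, 2 and 3). Only the Thbs2 groups do not overlap; in Thbs4 the knockout-labelled animal 1, at 401 CPM, sits above every wild-type library.

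Serpinf1 measured 599.5, 767 and 644 CPM in the knockout-labelled group, against 856, 729 and 1009 CPM in the wild type. The groups overlapped through knockout-labelled animal 2 and wild-type animal 2. Their means were 670.0 ± 86.5 and 864 ± 140.0 CPM (SD, n = 3 each), so that the knockout-labelled mean was 77.5% of the wild-type mean. The log2 fold change was -0.37 (standard error, SE, 0.17; 95% interval -0.75 to 0.01), which did not pass (edgeR adjusted p = 0.371). Serpinf1 was read from at least 13969 counts in each library, a counting error of at most 0.846%, so the spread between animals and not the depth limits this value. After a correction for transcript GC content the log2 fold change was -0.25.

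Thbs1 measured 1164, 1155 and 931 CPM in the knockout-labelled group, against 1549.8, 1152 and 1486 CPM in the wild type. Wild-type animal 2 lay within the knockout-labelled range, and the other wild-type libraries lay above it. The log2 fold change was -0.37 (SE 0.17; 95% interval -0.75 to 0.02; edgeR adjusted p = 0.373). Thbs1 is also a major protein of platelet granules. Of 7 platelet markers tested 6 had a log2 fold change above 0, with 0 called, and their summed level was 40.0 CPM in knockout-labelled animal 1 and 11.1 to 19.0 CPM in the other libraries. The library highest in platelet markers lay between wild-type animals 3 and 2 in Thbs1.

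Thbs2, the second member with type 1 repeats, was the one gene whose groups did not overlap. It measured 128, 144 and 124 CPM in the knockout-labelled group, against 156, 147 and 178 CPM in the wild type. The groups were next to each other, with 144 and 147 CPM the nearest values. Means were 132 ± 10.4 and 160.3 ± 16.3 CPM (SD, n = 3 each). The log2 fold change of -0.28 (SE 0.13; 95% interval -0.57 to 0.01) did not pass (edgeR adjusted p = 0.373).

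Thbs3, which per exon length lay above 50.9% of the tested genes with a length, measured 21.7, 23.3 and 21.3 CPM in the knockout-labelled group. The wild-type libraries measured 34.0, 21.4 and 31.1 CPM. The knockout-labelled libraries were close together (22.1 ± 1.07 CPM) and the wild-type ones were not (28.8 ± 6.58 CPM, SD, n = 3 each), because wild-type animal 2 sat among the knockout-labelled values. Its log2 fold change was -0.38 (SE 0.19; 95% interval -0.82 to 0.05; edgeR adjusted p = 0.407). Leaving out wild-type animal 2 gave -0.56, while leaving out animal 1 of that group gave -0.25, and it passed in neither case. Mtx1, the opposite-strand neighbour that shares exon bases with it, stood at 17.6 ± 1.85 and 24.2 ± 0.708 CPM (SD, n = 3 each; log2 fold change -0.46, edgeR adjusted p = 0.258). Its part in the Thbs3 value was not tested.

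Thbs4 turned on 1 library. It measured 401, 202 and 228 CPM in the knockout-labelled group, against 349, 380.2 and 313 CPM in the wild type. Knockout-labelled animal 1 was the highest of all 6 libraries, and knockout-labelled animals 2 and 3 were the lowest. Over all libraries the log2 fold change was -0.33 (SE 0.24; 95% interval -0.88 to 0.22; edgeR adjusted p = 0.586). Without knockout-labelled animal 1 it was -0.70 and passed (edgeR adjusted p = 0.0336), in a fit that called 4.95% of all genes. Leaving out animal 2 of that group gave -0.15, and leaving out animal 3 gave -0.21. With the mean level of the corneal markers as a covariate it was 0.08 (edgeR adjusted p = 0.964), so its direction turned with that term.

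Relative to each other, the thrombospondins kept a like mix in both groups. Of the summed CPM per kilobase of the 4 genes, Thbs1 made up 62.8% ± 5.85 in the knockout-labelled group and 62.8% ± 4.74 in the wild type (SD, n = 3 each). Thbs4 made up 28.9% ± 7.06 and 29.2% ± 5.01 (SD, n = 3 each). The lowest Thbs1 shares were 57.0% in knockout-labelled animal 1 and 57.4% in wild-type animal 2, the libraries with the highest Thbs4 shares, 36.2% and 35.0%. Thbs2 held between 5.44% and 7.41% and Thbs3 between 1.34% and 1.81% of the sum. Comp, the fifth thrombospondin gene of the mouse and a cartilage matrix protein, lies outside the naming rule and stood at 218 ± 25.3 and 265 ± 106 CPM (SD, n = 3 each; log2 fold change -0.28, edgeR adjusted p = 0.658).

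**Figure D3:**
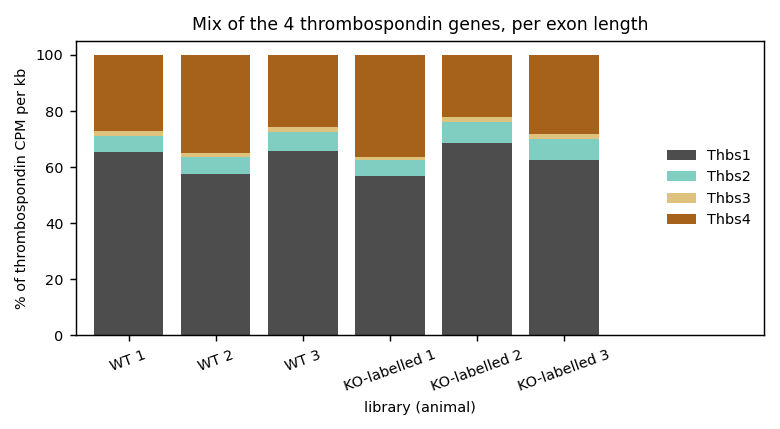
Share of each thrombospondin gene in the summed CPM per kilobase of the 4 genes, as stacked bars that add to 100% in each library. Thbs1 takes 57.0% to 68.7%, and Thbs4 takes its largest shares in wild-type animal 2 and knockout-labelled animal 1.

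Vash1 measured 17.7, 16.2 and 13.3 CPM in the knockout-labelled group, against 16.5, 14.4 and 24.7 CPM in the wild type. Wild-type animal 3 was apart from the rest, and the other 5 libraries overlapped. The log2 fold change of -0.24 (SE 0.24; 95% interval -0.78 to 0.30; edgeR adjusted p = 0.699) was 0.10 after the GC correction. It came to 0.00 when wild-type animal 3 was left out, to -0.39 when animal 2 of that group was, and to -0.13 when animal 3 of the knockout-labelled group was. Vash1 has the highest transcript GC content of the 7, at 62.2%.

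Vash2 was near the floor of detection, with 48, 68 and 50 counts in the knockout-labelled group and 65, 68 and 65 counts in the wild type. That is 2.01, 3.73 and 2.01 CPM against 2.44, 2.81 and 2.25 CPM, with knockout-labelled animal 2 highest and the other 2 of its group lowest. The log2 fold change was 0.04 (SE 0.48; 95% interval -1.03 to 1.12; edgeR adjusted p = 0.977). The interval spans a halving and a doubling, so a difference of that size was not detectable at this depth and spread.

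**Figure D4:**
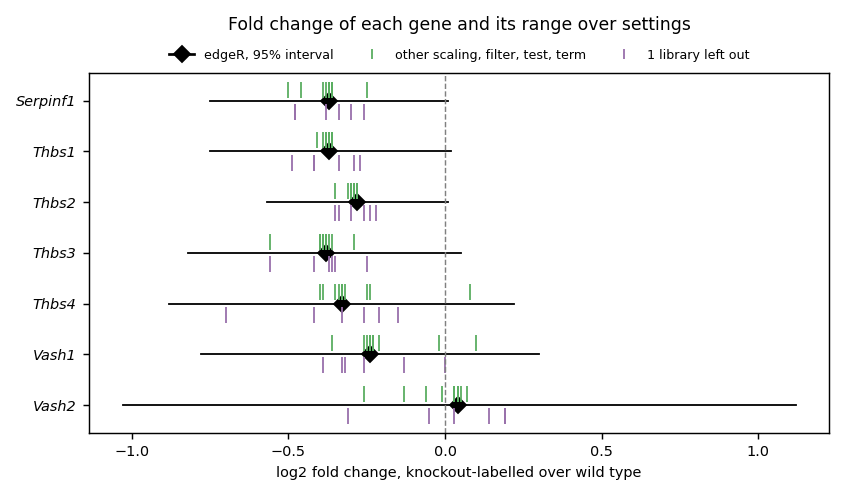
Log2 fold change of each gene, knockout-labelled over wild type (diamond), with its 95% interval (line); green ticks give the value under another scaling, filter, test, covariate, block or GC correction, and purple ticks the value with 1 library left out. Every interval includes 0, and the ticks of Serpinf1, Thbs1, Thbs2 and Thbs3 all lie below 0.

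In the authors' deposited table, with the sign turned to knockout over wild type, Serpinf1 was at -0.40 (FDR 0.559), Thbs1 at -0.39 (FDR 0.560) and Thbs3 at -0.40 (FDR 0.616). The authors' deposited table gives -0.30 for Thbs2, -0.29 for Thbs4, -0.27 for Vash1 and 0.00 for Vash2, with FDR values from 0.684 to 1.00. None of the 7 was at an FDR under 0.05 in the authors' deposited table, as 392 of its 16561 genes were.

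The order of the libraries by several of these genes followed, exactly or in part, the order by summed CPM of markers of the tissue's layers. These pairings were picked after the values were seen, out of 14 marker lists, and in bulk RNA fewer cells of a type and less RNA per cell cannot be told apart. Thbs4 moved with the pigment epithelium markers: it ranged over 0.99 on the log2 scale across the 6 libraries, but its difference from the mean log2 CPM of the 10 markers ranged over only 0.29. Those markers summed to 37466, 21548 and 23418 CPM in the knockout-labelled group and to 28942, 39811 and 34258 CPM in the wild type. Like Thbs4, they were lowest in knockout-labelled animals 2 and 3, the libraries highest in corneal markers. Of the 10 markers 7 had a log2 fold change below 0 (median -0.31), and 0 were called.

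Serpinf1 ranked the 6 libraries in the same order as the summed sclera, tendon and cartilage-type markers, not as the pigment epithelium markers. From high to low this order was wild-type animals 3 and 1, knockout-labelled animal 2, wild-type animal 2, and knockout-labelled animals 3 and 1. Those markers summed to 1148, 1642 and 1274 CPM in the knockout-labelled group and 2089.8, 1554 and 2414 CPM in the wild type, and 8 of the 10 tested had a log2 fold change below 0 (median -0.48), with 0 called. Knockout-labelled animal 1, second highest of the 6 in pigment epithelium markers, was lowest in Serpinf1. The difference of Serpinf1 from the mean log2 CPM of the sclera list ranged over 0.34, against 0.75 for its own level. For the fibroblast list that range was also 0.34, so this measure does not set the sclera list apart. Thbs2 ranked the libraries as the summed CPM of the 8 fibroblast markers did, and its difference from their mean log2 CPM ranged over 0.21. Neither match was exact by mean log2 CPM of the markers. On that scale the sclera list put wild-type animal 2 (6.03) above knockout-labelled animal 2 (5.99). The fibroblast list put wild-type animal 1 (8.86) above animal 3 (8.85), and knockout-labelled animal 3 (8.48) above animal 1 (8.36). Fibroblast markers summed to 8418 to 8925 CPM in the knockout-labelled group and 9575 to 11495 CPM in the wild type (7 of 8 below 0, median -0.21, 0 called). Relative to the fibroblast markers, mean log2 differences between the groups were -0.02 for Serpinf1, -0.02 for Thbs1, 0.06 for Thbs2 and -0.01 for Thbs3. They were nearly the same relative to the pigment epithelium markers (-0.03, -0.02, 0.06 and -0.02) and the pericyte markers (-0.01, -0.01, 0.07 and 0.00), so these differences do not set the fibroblast list apart. Relative to the sclera, tendon and cartilage-type markers they were 0.18, 0.18, 0.26 and 0.18, and Serpinf1 and Thbs2 were then higher in every knockout-labelled library than in any wild-type one. The share of all genes with that pattern against this list was not measured. Such differences hang on the list: for Serpinf1 they ran from -3.99 against the red cell markers to 1.52 against the lens and ciliary markers. Against the red cell markers, of which only 2 were tested, all 7 members were lower in every knockout-labelled library (-4.02 for Thbs4 to -3.64 for Vash2). That pattern is therefore not particular to Serpinf1 and Thbs2, and its share of all genes was not measured either. The part of any of these cell types in the members' values was not tested beyond this.

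**Figure D5:**
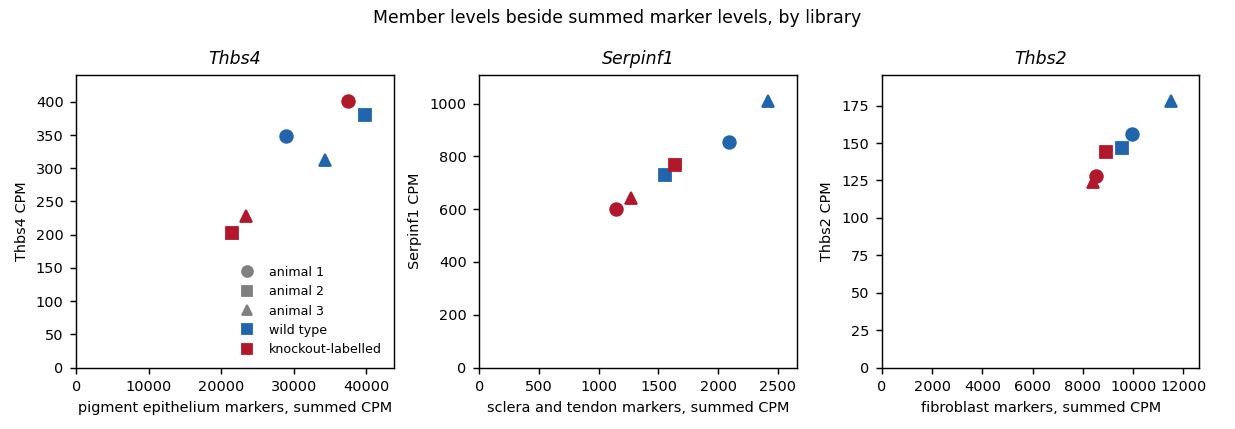
CPM of Thbs4, Serpinf1 and Thbs2 (vertical axes, from 0) against the summed CPM of pigment epithelium, sclera and tendon, and fibroblast markers (horizontal axes, from 0), 1 point per library (blue, wild type; red, knockout-labelled; shapes are animals). Serpinf1 and Thbs2 rank the libraries exactly as the summed CPM of their markers does, but not exactly as the markers' mean log2 CPM. Knockout-labelled animals 2 and 3 are lowest in both Thbs4, at 202 and 228 CPM, and pigment epithelium markers.

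Endothelial markers, the source usually given for vasohibin 1, summed to 579 to 882 CPM in the knockout-labelled group and 943 to 979 CPM in the wild type (9 of 10 below 0, median -0.41, 0 called). Vash1 did not follow them closely: its difference from their mean log2 CPM ranged over 0.75, against 0.90 for its own level. By the SD of that difference they were still the closest of the 14 lists to Vash1, at 0.28 against 0.31 for its own level. The fibroblast markers were next to them by SD, at 0.29, and closer by range, at 0.65. Skeletal muscle markers, a tissue where thrombospondin 4 is made, summed to 2019, 4191 and 1599.9 CPM in the knockout-labelled group and 961, 1415 and 3042 CPM in the wild type (8 of 9 tested above 0, median 0.54, 0 called), and of the 10 Myh13 was at 0 in every library. The library highest in muscle markers, knockout-labelled animal 2, was lowest in Thbs4.

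By likeness of pattern over the 6 libraries (Pearson's r of log2 CPM among 10434 other genes with a mean of at least 10 CPM, given as a description), the closest genes to Serpinf1 were Snx18 (0.992), Tceal3 (0.992) and Epc1 (0.989). Closest to Thbs1 were Ctdsp2 (0.991), Fam101b (0.986) and Gatm (0.984). For Thbs2 they were Zfp521 (0.984), Gripap1 (0.983) and Apbb2 (0.974), and for Thbs3 Ctps (0.972), Sparc (0.967) and Pogk (0.966). Thbs4 had far more close matches than the others: 543 genes had an r over 0.9 with it, against 34 to 80 for each other member, and the closest were Ankfn1 (0.997), Sorbs3 (0.994) and Csf1r (0.994). Vash1 was nearest to B3galnt1 (0.982), Fzr1 (0.981) and Ppp2r3d (0.976), and Vash2 to Tsfm (0.987), Dnajc15 (0.986) and Magoh (0.984). All points share the same 6 libraries and their scaling, and such values are common among so many genes over so few libraries.

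Receptors and partners were not called either. Of 16 genes for thrombospondin receptors and partners 9 lay below 0 and 7 above (median -0.05, 0 called), and the most abundant, the endocytic receptor gene Lrp1, stood at 1339 ± 264 and 1883 ± 282 CPM (SD, n = 3 each; log2 fold change -0.49, edgeR adjusted p = 0.299). Calr, encoding calreticulin, was at -0.03. Of 6 genes for reported PEDF receptors and binding partners 3 lay below 0 and 3 above (median -0.10, 0 called). Among them the Wnt co-receptor gene Lrp6 stood at 230.3 ± 13.7 and 314 ± 28.2 CPM (SD, n = 3 each; log2 fold change -0.45, edgeR adjusted p = 0.215), with groups that did not overlap, and Atp5b, an ATP synthase subunit, was at 0.03. Rpsa of the same list, named here after its values were seen, was higher in every knockout-labelled library (log2 fold change 0.46, edgeR adjusted p = 0.224). The vasohibin chaperone gene Ccdc23 (now Svbp) was higher in every knockout-labelled library, at 31.7 ± 3.56 against 23.2 ± 2.50 CPM (SD, n = 3 each; log2 fold change 0.45, edgeR adjusted p = 0.265). Ttl, whose enzyme puts the tyrosine back on tubulin, was lower in every one, at 26.3 ± 2.87 against 36.5 ± 5.36 CPM (SD, n = 3 each; -0.48, edgeR adjusted p = 0.257). Neither passed.

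Latent TGF-beta, which thrombospondin 1 can activate, was followed through 12 genes, of which 10 lay below 0 and 2 above (median -0.22, 0 called), and 5 had knockout-labelled libraries all below the wild type, a pattern of 9.96% of all genes. In 1 gene, Tgfbi, named here after its values were seen, all knockout-labelled libraries were above the wild type. Of the 15796 genes tested 1585 showed that pattern. Tgfbi measured 153, 354 and 268 CPM in the knockout-labelled group, against 149, 135 and 101 CPM in the wild type. Means were 258 ± 101 and 129 ± 24.8 CPM (SD, n = 3 each), with a log2 fold change of 1.01 (edgeR adjusted p = 0.186). Knockout-labelled animals 2 and 3, highest in Tgfbi, were also highest in the summed corneal markers, and a link was not tested. Ltbp4, a latent TGF-beta binding protein of elastic fibres, stood at 257 ± 22.2 and 456 ± 11.0 CPM (SD, n = 3 each; log2 fold change -0.83, edgeR adjusted p = 0.0916). Tgfbr2, a receptor gene, was at -0.15. Of 19 other genes whose proteins are listed with type 1 repeats, 14 lay below 0 and 5 above (median -0.27, 0 called). Ctgf was at -0.69 (491 ± 79.5 against 789.8 ± 157 CPM, SD, n = 3 each) and Spon1 at 0.06. Of 24 other secreted or matrix-derived inhibitors 21 were tested, 14 below 0 and 7 above (median -0.20, 0 called), and Plg, Hrg and Kng1 were at 0 in every library. Sparc, a matricellular protein, stood at 1939.8 ± 180.4 and 2905 ± 649 CPM (SD, n = 3 each; -0.58, edgeR adjusted p = 0.239). Timp3 was at -0.48.

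Genes that promote vessel growth, namely growth factors and the VEGF receptor gene Kdr, gave 0 calls as well. Of these 11 genes 9 lay below 0 and 2 above (median -0.18, 0 called), with Vegfb at -0.25. Vegfa measured 376, 207 and 241 CPM in the knockout-labelled group, against 337, 367 and 407 CPM in the wild type (log2 fold change -0.43, edgeR adjusted p = 0.409). The ratio of Serpinf1 to Vegfa counts, which does not depend on library scaling, was 1.59, 3.70 and 2.67 in the knockout-labelled group, against 2.54, 1.99 and 2.48 in the wild type. The knockout-labelled ratios lay on both sides of the wild-type range. Mean log2 ratios differed by 0.11 (ratio means 2.65 ± 1.05 and 2.34 ± 0.305, SD, n = 3 each; two-sided exact permutation p = 0.80, where the smallest that 3 against 3 allows is 0.10).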

How the data were processed

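PolyA-enriched RNA of 6 animals was sequenced, per the labels' protocols. The authors deposited whole-number counts per gene, made with HTSeq after TopHat and Bowtie on mm10, per the submitters' processing notes. Tool versions, annotation and strand setting were not given in the sources used here. The authors' deposited edgeR table holds log2 fold changes, p-values and FDR values. The 5 tally rows were left out.

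Counts were tested with edgeR 4.0.16 (R 4.3.3): filterByExpr (minimum count 10, total 15), TMM, glmQLFit, then glmQLFTest on genotype, its single term, Benjamini-Hochberg adjustment over 15796 genes. SE is the absolute log2 fold change over the square root of F. Alternatives used DESeq2 1.42.0, limma 3.58.1, other scaling and filters, marker covariates, a GC correction (lowess span 0.3, 15616 genes), the animal number as a block, and each library left out. The fits were tested on simulated data. Exon lengths and coordinates came from GENCODE M21, which matched 22985 of 23420 names.

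The members and lists (7 of pathway genes, 14 of markers) were chosen with earlier results of these data known. From each pathway list, called genes or else the 2 with the highest mean CPM were named. The labels list separate animals per group, and p-values measure the spread between them. The planned comparison of the members' proteins is not analysed here.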

Additional observations from a re-analysis of the deposited data

How the results depend on the processing

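Serpinf1, Thbs1, Thbs2 and Thbs3 stayed below 0 and were not called under all 17 alternatives each (-0.50 to -0.25, -0.49 to -0.27, -0.35 to -0.22 and -0.56 to -0.25). Signs turned for Thbs4 with the cornea marker covariate (0.08), for Vash1 with the GC correction (0.10), and for Vash2 with limma-voom (-0.06), the cornea covariate (-0.26) and the skeletal muscle covariate (-0.13); the cause was not tested. With 1 library left out, log2 fold changes ran from -0.70 to -0.15 for Thbs4, from -0.39 to 0.00 for Vash1 and from -0.31 to 0.19 for Vash2, and the log2 Serpinf1 to Vegfa ratio from -0.17 to 0.44. The animal numbers did not pair the libraries (correlations of deviations -0.10, -0.09 and -0.07 for animals 1, 2 and 3), and with the animal number as a block Vash2 was at -0.01, no member was called and the genes called fell from 8 to 1. Genes called numbered 15 with upper-quartile factors, 22 without a filter, 16 with a filter at 1 CPM, 13 with limma-voom, 357 with the exact test, 493 with DESeq2 and 0 with the muscle covariate (1669 at an unadjusted p under 0.05). With 1 library left out they ran from 0 to 795: leaving out knockout-labelled animal 1 gave 795, wild-type animal 2 gave 1, and the knockout-labelled animals 2 and 3 and wild-type animal 3 each gave 0 (1516, 1719 and 1738 at an unadjusted p under 0.05). Counting error for Vash2 was 12.1% to 14.4%, under the spread of 38.4% (coefficient of variation) in its knockout-labelled group. Its wild-type spread of 11.4% was no larger than that error. For Thbs3 counting error reached 4.85%, as large as the 4.83% spread of its knockout-labelled group and under the 22.8% of its wild-type group.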
